A study of Mus musculus with 8 samples.

Results

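Igf2, H19, Dlk1, Meg3, Rian, Mirg, Cdkn1c, Peg3, Mest and Plagl1 are imprinted genes of fetal growth. They were followed here as 10 rows of a table of 23337 genes, taken by gene symbol. The table holds RNA sequencing of cells sorted by flow cytometry as endothelial from whole mouse embryos at E15.5. In the tamoxifen group the pregnant females were gavaged with tamoxifen at E12.5, and in the group without tamoxifen they were not. Per the series' design text, mice of both groups carried Cdh5-CreERT2(PAC), an inducible recombinase under regulatory sequence of an endothelial cadherin gene, and Rosa26fsTRAP, a reporter that the recombinase switches on. The genotype given for every sample, in contrast, reads wild type. The drug and any recombinase it activated come together in the tamoxifen group, so they cannot be told apart, and recombination was not analysed here. Whether the samples of a group stem from different litters or embryos is not stated in the labels, and p-values therefore cover only the spread among these libraries, which may be technical.

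Genomic imprinting marks a gene in the germ line so that mostly the copy from 1 parent is transcribed. Paternally expressed genes of this kind, such as Igf2 and Dlk1, tend to promote growth of the fetus, and maternally expressed ones, such as H19 and Cdkn1c, tend to restrain it. Many are abundant in fetal mesoderm, endothelium and placenta and are switched off after birth. Igf2 and H19 share enhancers in an imprinted domain on chromosome 7, and Dlk1, Meg3, Rian and Mirg lie in an imprinted domain on chromosome 12.

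6 of the 10 genes also contain miRNA genes on the same strand, with 41 mature miRNAs in RefSeq (GRCm38.p6). There are 26 in Mirg, 6 in Rian, 3 in Meg3 and 2 each in Igf2, H19 and Mest. Their seeds, bases 2 to 8, fall into 40 different sequences, and the only shared seed is GGUUGCC, carried by miR-453 and miR-496a-5p of Mirg. The sequences below show the 5p or only listed arm of the miRNA lying first along the chromosome in each host, and the pair that shares a seed, 5′ to 3′ with the seed in capitals.
mmu-miR-483-5p in Igf2, chr7:142654968-142654989, minus strand: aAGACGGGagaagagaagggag
mmu-miR-675-5p in H19, chr7:142577112-142577133, minus strand: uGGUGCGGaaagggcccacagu
mmu-miR-1906 in Meg3, chr12:109544588-109544609, plus strand: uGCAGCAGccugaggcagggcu
mmu-miR-341-5p in Rian, chr12:109611521-109611541, plus strand: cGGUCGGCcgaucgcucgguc
mmu-miR-382-5p in Mirg, chr12:109733781-109733802, plus strand: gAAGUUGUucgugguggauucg
mmu-miR-453 in Mirg, chr12:109735669-109735692, plus strand: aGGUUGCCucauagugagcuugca
mmu-miR-496a-5p in Mirg, chr12:109739132-109739152, plus strand: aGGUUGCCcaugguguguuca
mmu-miR-335-5p in Mest, chr6:30741314-30741336, plus strand: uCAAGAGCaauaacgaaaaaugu

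The labels list 4 samples per group, but the table's header is 1 name short of its 9 value columns. Only columns 3 to 5 (without tamoxifen) and 7 to 9 (tamoxifen) keep their group wherever the names are placed, so these 6 libraries, numbered 1 to 3 in table order, were compared, and columns 6 and 10 are given apart. The libraries held 12212472 to 19908404 reads in genes. Levels are given as read counts normalised by the authors. The score of a marker list averages log2(value + 1) over the list's genes, in each library. All 12 endothelial markers were above 0 in every library, with scores of 10.36, 10.41 and 9.11 in the tamoxifen libraries and 10.34, 10.15 and 9.69 in those without. All 11 macrophage markers were above 0 too, with higher scores, 11.27, 11.19 and 11.89 with tamoxifen and 11.72, 11.55 and 11.72 without, so the RNA cannot be assigned to endothelial cells alone. The mesenchymal score set 2 tamoxifen libraries apart, at 9.96 in tamoxifen_1 and 10.40 in tamoxifen_2, with 6.60 in tamoxifen_3 and 6.70, 6.12 and 5.50 without tamoxifen. All 14 of its genes were above 0 in every library, with summed levels of 5249 to 98067 normalised reads with tamoxifen and 2461 to 5507 without. In bulk RNA, fewer cells of a type and less RNA per cell cannot be told apart.

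None of the 10 genes passed the test between 3 tamoxifen libraries and 3 without. Dlk1, Meg3, Rian and Peg3 were several-fold higher in tamoxifen_1 and tamoxifen_2 than in any library without tamoxifen, but not in tamoxifen_3. Igf2, H19 and Mest, the most abundant of the set, had fold changes near 1. Each gene is described below by its role.

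Igf2 encodes insulin-like growth factor 2, a paternally expressed growth factor of the fetus. It had 12425, 13620.4 and 4039.9 normalised reads in the tamoxifen libraries, against 9549.5, 8206 and 5877 in those without tamoxifen. H19, the maternally expressed non-coding RNA beside it, had 12074, 15152 and 5102 with tamoxifen, against 12026, 13331 and 6467 without. For both genes tamoxifen_3 was the lowest of the 6 libraries, no_tamoxifen_3 the next lowest, and the groups overlapped. The log2 fold change, tamoxifen over no tamoxifen, was 0.19 ± 0.42 (SE) for Igf2, with a 95% interval of -0.78 to 1.16 (limma, Benjamini-Hochberg adjusted p = 0.915). For H19 it was -0.05 ± 0.41 with an interval of -0.99 to 0.89 (limma adjusted p = 0.980), and its sign turned to 0.04 in edgeR with TMM. Neither gene passed the threshold of 0.05.

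The ratio of H19 to Igf2, a maternally and a paternally expressed gene of the same domain, was 0.972, 1.11 and 1.26 in the tamoxifen libraries and 1.26, 1.62 and 1.10 in those without. The log2 ratio averaged 0.15 ± 0.19 with tamoxifen and 0.39 ± 0.29 without (SD, n = 3 each), a difference of -0.24. An exact two-sided permutation test gave p = 0.5, where 3 libraries against 3 cannot go below 0.1. Igf2 lies on GRCm38 chromosome 7 at 142650766 to 142666816 and H19 at 142575529 to 142578143, each on the minus strand. Reads of Igf2 cannot be told apart from those of the antisense gene Igf2os or of the same-strand gene Gm49394 where they overlap, since no source used here gives the use of strand in counting. Annotated genes on the opposite strand also overlap H19, Meg3, Mirg, Cdkn1c, Mest and Plagl1.

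**Figure D1:**
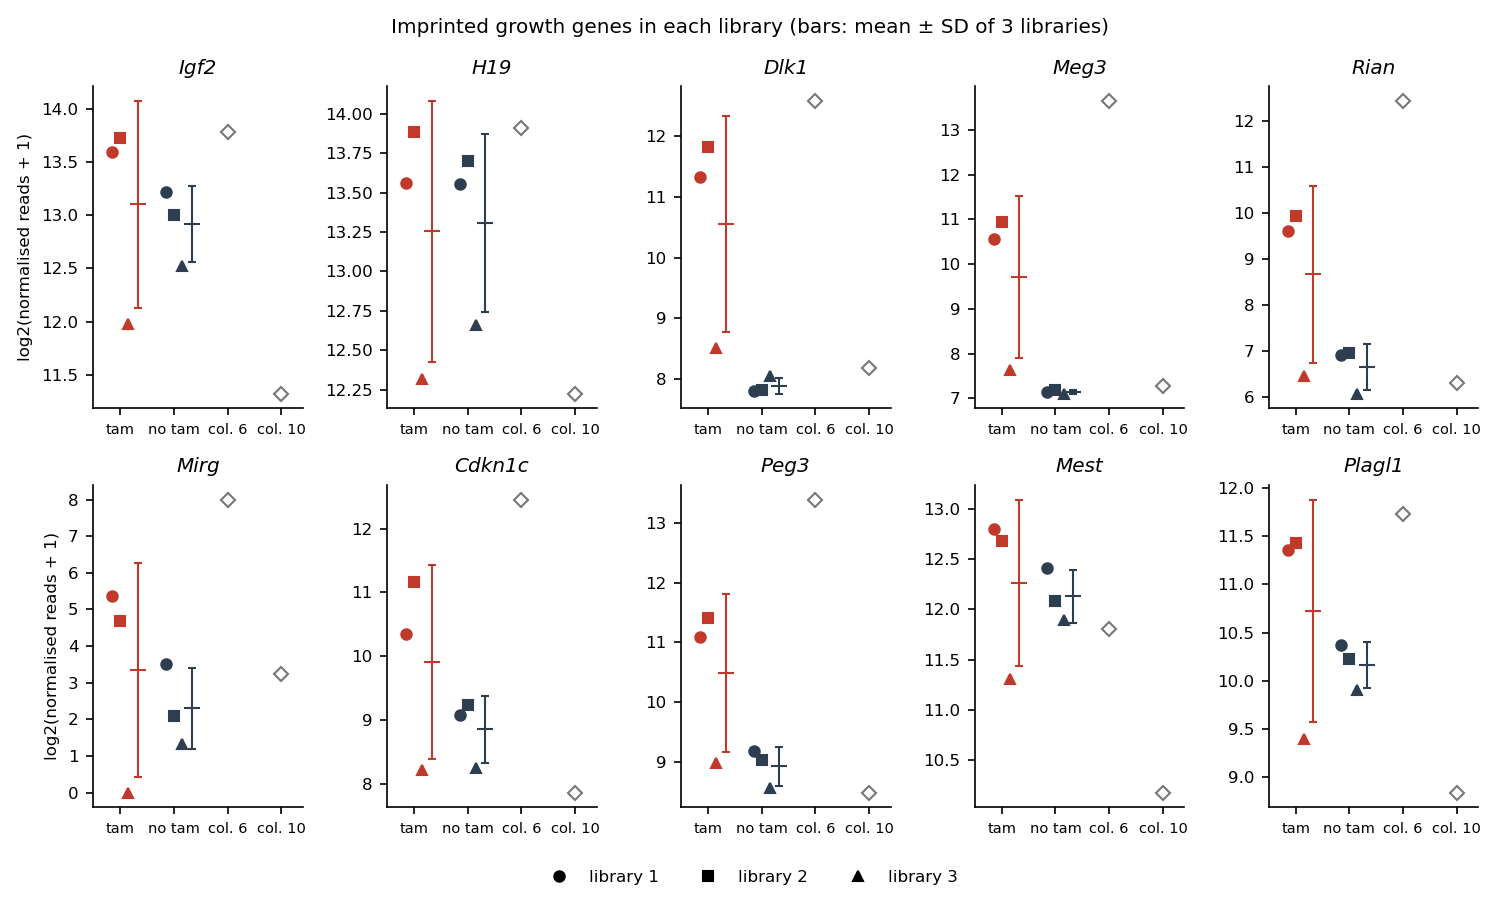
Log2(normalised reads + 1) of the 10 imprinted growth genes in each library, with tamoxifen (red) left of no tamoxifen (dark), bars for the mean ± SD of 3 libraries, and columns 6 and 10 as open diamonds. Tamoxifen_1 and tamoxifen_2 lie above all 3 libraries without tamoxifen for 9 of the 10 genes, H19 being the exception, and tamoxifen_3 is the lowest of the tamoxifen libraries for all 10.

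Among the 10 genes the largest fold changes were those of Dlk1 and Meg3 on chromosome 12. Dlk1 is paternally expressed and encodes a membrane protein of the Notch ligand family that is known to restrain differentiation of precursor cells. It had 2581, 3614 and 364 normalised reads in the tamoxifen libraries, against 222, 225 and 263 in those without. Meg3, the maternally expressed non-coding RNA downstream of it, had 1504, 1959 and 198 with tamoxifen, against 141, 144 and 136 without. For both genes the groups did not overlap, as for 6.24% of all genes tested in the higher direction. Against the mean of the libraries without tamoxifen, Dlk1 was 10.9, 15.3 and 1.54 times as high in tamoxifen_1, tamoxifen_2 and tamoxifen_3, and Meg3 10.7, 14.0 and 1.41 times.

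The log2 fold change was 2.67 ± 0.72 (SE) for Dlk1, with a 95% interval of 1.02 to 4.32, and did not pass over all genes (limma adjusted p = 0.462). For Meg3 it was 2.57 ± 0.73, with an interval of 0.90 to 4.23 (limma adjusted p = 0.462). DESeq2 on recovered reads called both higher, at 3.24 (DESeq2 adjusted p = 0.0125) and 3.15 (DESeq2 adjusted p = 0.0167), while edgeR with TMM called neither. Without tamoxifen_3 both passed in limma, at 3.69 (adjusted p = 2.78e-10) and 3.61 (adjusted p = 3.43e-10). With tamoxifen_1 or tamoxifen_2 left out, neither passed. Over the 18 alternatives the adjusted p of each gene went as high as 0.993.

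Rian and Mirg follow Meg3 on the same strand and are maternally expressed hosts of small RNAs, snoRNAs and miRNAs in Rian and miRNAs in Mirg. Rian had 775, 977 and 87.0 normalised reads in the tamoxifen libraries, against 119, 123 and 66.2 in those without. Mirg, the rarest of the 10 genes, had 40.0, 24.7 and 0 with tamoxifen, against 10.4, 3.24 and 1.52 without. In both, tamoxifen_1 and tamoxifen_2 were above every library without tamoxifen, while tamoxifen_3 lay among those libraries for Rian and below them for Mirg. A count of 0 in tamoxifen_3 allows up to 3 reads, or 2.10 normalised reads, for counting error only.

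The log2 fold change was 2.02 ± 0.80 (SE) for Rian (limma adjusted p = 0.518) and 1.04 ± 1.36 for Mirg (limma adjusted p = 0.845). Mirg was included only because of its level in the tamoxifen group, since its mean was 21.6 ± 20.2 there and 5.06 ± 4.72 without tamoxifen (SD, n = 3 each). Without tamoxifen_3, Rian passed in limma at 3.12 (adjusted p = 2.17e-07), and Mirg was at 2.71. Without tamoxifen_1, Rian was at 1.55 and Mirg at 0.03, and without tamoxifen_2 they were at 1.39 and 0.37. Mirg was at 0.55 without no_tamoxifen_3 and 1.64 without no_tamoxifen_1. With tamoxifen_3 as the only tamoxifen library they were at -0.18 and -2.31, the value of Mirg resting on the pseudocount since that library is at 0.

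Summed over the domain, the rows of miRNA genes were highest in the same libraries, at low levels. The table holds 55 of the 57 RefSeq miRNA genes between the start of Meg3 and the end of Mirg on the plus strand, and their values summed to 105, 129 and 14.0 normalised reads in the tamoxifen libraries, against 11.3, 5.40 and 8.37 in those without. The 13 rows within Mirg summed to 22.5, 21.9 and 2.81 with tamoxifen, against 0.868, 0 and 1.52 without. Tamoxifen_1 and tamoxifen_2 were the 2 highest of the 6 libraries in both sums. The 3 rows within Rian summed to 4.10, 28.5 and 6.31 with tamoxifen, against 4.34, 2.16 and 1.52 without, so there tamoxifen_1 was below tamoxifen_3 and no_tamoxifen_1. The 2 rows within Meg3 were at 0 in all 6 libraries. Mir675, inside H19, was at 0 in all 6 libraries although H19 itself was at 5102 normalised reads or more in each. The libraries were made from total RNA and were not a small RNA assay, so these rows count fragments over hairpin genes, and no source used here says how reads over both a host and a miRNA gene were counted.

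The ratio of Meg3 to Dlk1 differed little between libraries, although both genes varied by over an order of magnitude. It was 0.583, 0.542 and 0.543 in the tamoxifen libraries and 0.633, 0.639 and 0.519 in those without. The log2 ratio averaged -0.85 ± 0.06 with tamoxifen and -0.75 ± 0.17 without (SD, n = 3 each), a difference of -0.10 (exact two-sided permutation test, p = 0.4). Column 6 stood apart, with a ratio of 2.09. Dlk1 lies on chromosome 12 at 109452823 to 109463336, Meg3 at 109541001 to 109571726, Rian at 109603940 to 109661716 and Mirg at 109729764 to 109749460, all on the plus strand of GRCm38. The annotation places 19 other genes inside or over Rian and 15 over Mirg, mostly snoRNA and miRNA genes.

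**Figure D2:**
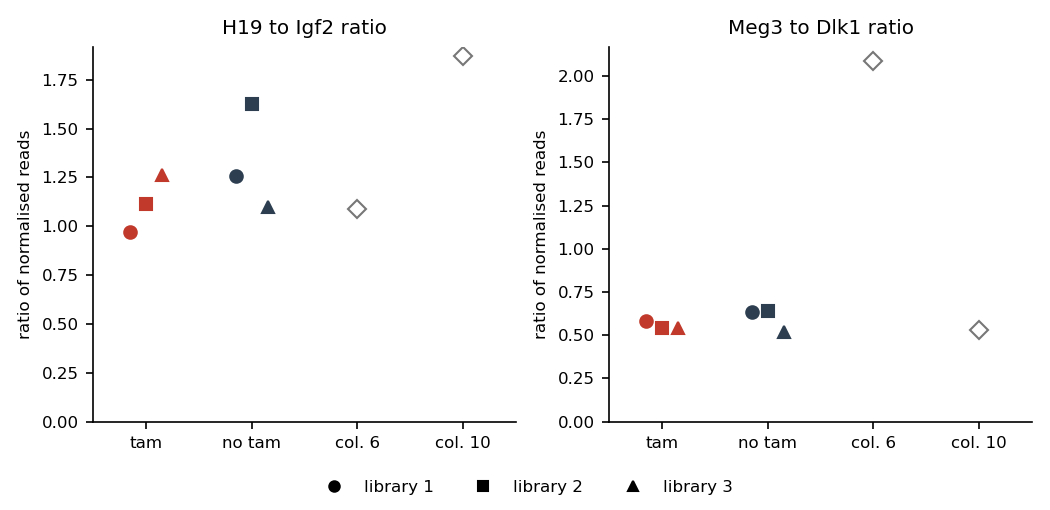
Ratio of normalised reads of H19 to Igf2 (left) and of Meg3 to Dlk1 (right) in each library, with tamoxifen left of no tamoxifen and columns 6 and 10 as open diamonds. Both ratios overlap between the groups, and the Meg3 to Dlk1 ratio stays between 0.519 and 0.639 in the 6 libraries but is 2.09 in column 6.

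Cdkn1c is maternally expressed and encodes an inhibitor of cyclin-dependent kinases that restrains cell division in the embryo. It had 1298, 2283 and 296 normalised reads in the tamoxifen libraries, against 538, 598 and 303 in those without. Tamoxifen_1 and tamoxifen_2 were the highest of the 6 libraries and tamoxifen_3 the lowest. Its log2 fold change was 1.06 ± 0.65 (SE), with a 95% interval of -0.43 to 2.54 (limma adjusted p = 0.636).

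Peg3 is paternally expressed and encodes a zinc finger protein that affects growth and maternal behaviour in mice. It had 2175, 2723 and 503 normalised reads in the tamoxifen libraries, against 581, 519 and 375 in those without. Tamoxifen_3 lay within the range of the group without tamoxifen. The log2 fold change of Peg3 was 1.57 ± 0.55 (SE), with an interval of 0.31 to 2.83 (limma adjusted p = 0.475). Without tamoxifen_3, Cdkn1c passed at 1.90 (limma adjusted p = 8.83e-05) and Peg3 at 2.33 (limma adjusted p = 1.34e-07). Without tamoxifen_2, Cdkn1c was at 0.43 and Peg3 at 1.11, and without tamoxifen_1 they were at 0.84 and 1.27, with neither past the threshold. With tamoxifen_3 as the only tamoxifen library Cdkn1c was at -0.64. Cdkn1c lies at 143458339 to 143461050 and Peg3 at 6703892 to 6730431 of GRCm38 chromosome 7, each on the minus strand.

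Mest is paternally expressed and encodes a protein of the hydrolase fold, used as a marker of embryonic mesoderm. It had 7126, 6551 and 2542.5 normalised reads in the tamoxifen libraries, against 5442, 4348 and 3791 in those without. Plagl1 is paternally expressed and encodes a zinc finger transcription factor known in mice to act on other imprinted growth genes, among them Igf2, H19, Dlk1 and Cdkn1c. It had 2613, 2753 and 671 with tamoxifen, against 1321, 1196 and 957 without. In both genes tamoxifen_1 and tamoxifen_2 were the highest libraries and tamoxifen_3 the lowest.

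The log2 fold change was 0.13 ± 0.36 (SE) for Mest, with a 95% interval of -0.68 to 0.95 (limma adjusted p = 0.929). For Plagl1 it was 0.56 ± 0.48, with an interval of -0.53 to 1.65 (limma adjusted p = 0.741). Without tamoxifen_3, Mest passed at 0.61 (limma adjusted p = 0.0107), Plagl1 at 1.22 (limma adjusted p = 1.77e-05) and Igf2 at 0.75 (limma adjusted p = 0.00761), while H19 at 0.42 did not (limma adjusted p = 0.281). Plagl1 was at 0.24 without tamoxifen_1 and 0.21 without tamoxifen_2. With tamoxifen_3 alone Mest was at -0.82, Plagl1 at -0.77 and Igf2 at -0.93. Mest lies on GRCm38 chromosome 6 at 30723547 to 30748465 and Plagl1 on chromosome 10 at 13060504 to 13131694, both on the plus strand.

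Over the 10 genes, limma called 0 higher and 0 lower, beside 6 higher (0.0445%) and 0 lower of 13480 genes tested. At an unadjusted p under 0.05, 4 of the 10 were higher, Dlk1, Meg3, Rian and Peg3, and 0 lower, beside 659 higher and 556 lower of all genes. edgeR with TMM on recovered reads called 0 of the 10, beside 0.0371% of genes higher, and DESeq2 called 2 higher, Dlk1 and Meg3, beside 1.83% of genes higher. Non-overlapping groups, higher with tamoxifen, were seen for 2 of the 10 genes and 6.24% of all genes, and lower with tamoxifen for 0 of the 10 and 7.62%. The median log2 fold change was 1.05 for the 10 genes and -0.02 for all genes tested.

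The 3 tamoxifen libraries differed among themselves for these genes. Tamoxifen_1 and tamoxifen_2 were above every library without tamoxifen for 9 of the 10 genes, beside 18.6% of all genes tested. Tamoxifen_3 was below every library without tamoxifen for 6, namely Igf2, H19, Mirg, Cdkn1c, Mest and Plagl1, beside 26.7% of all genes. It was above them for Dlk1 and Meg3, beside 29.3% of all genes. Without tamoxifen_3 limma called 9 of the 10 higher, beside 7.22% of all genes higher and 3.48% lower. Mirg is 1 of the 9 and entered the test only through its level with tamoxifen. With tamoxifen_3 as the only tamoxifen library it called 0, beside 0.208% of genes higher and 0.467% lower. That group then held 1 library, which was assumed to vary like the 3 without tamoxifen. The highest adjusted p of each gene over its alternatives was 0.993 to 0.999, and the lowest was that without tamoxifen_3 for all but H19, whose lowest was 0.172.

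**Figure D3:**
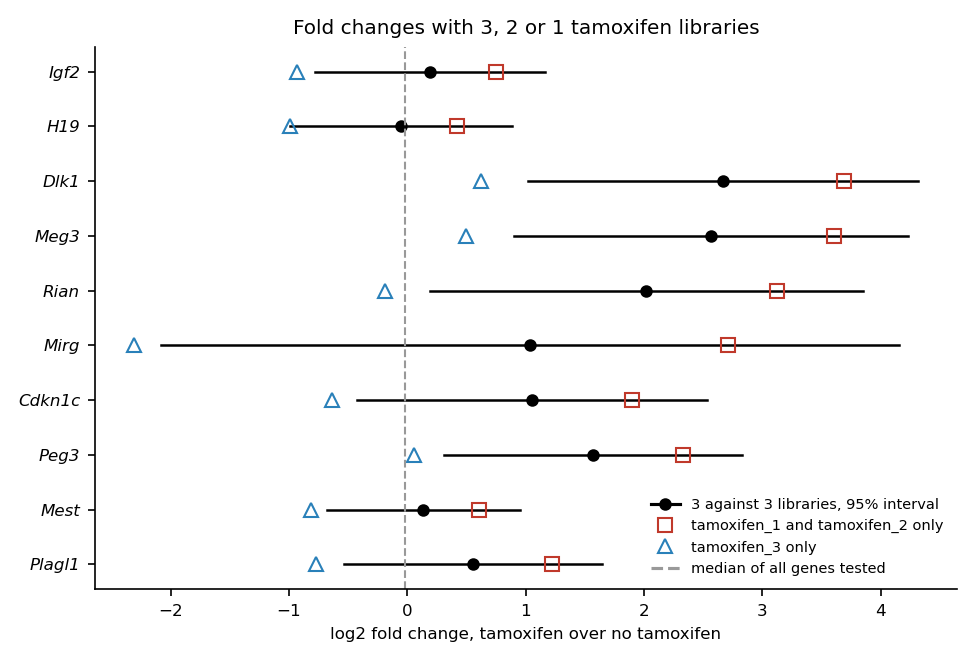
Log2 fold change of each gene, tamoxifen over no tamoxifen, for 3 against 3 libraries (black, with 95% intervals), for tamoxifen_1 and tamoxifen_2 only (red squares) and for tamoxifen_3 only (blue triangles), with the median of all genes as a dashed line. The squares lie to the right of 0 for all 10 genes, while the triangles lie to the left for 7, from -0.18 for Rian to -2.31 for Mirg.

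Together the 10 genes took 0.482%, 0.565% and 0.148% of reads, the ribosomal RNA precursor Rn45s left out, in the tamoxifen libraries, against 0.332%, 0.315% and 0.203% in those without. Igf2 and H19 made up 57.5% to 75.1% of these reads in the 6 libraries. Per kilobase of exon, H19 was the most abundant, at 4380.5 ± 2093 normalised reads per kilobase with tamoxifen and 4312 ± 1482 without (SD, n = 3 each). Igf2 followed at 1752 ± 912 with tamoxifen and 1376 ± 325 without. Mest and Cdkn1c came next in both groups, and Peg3, Meg3, Rian and Mirg took the last 4 places in that order.

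Dlk1 and Plagl1 changed places in this order. Dlk1 was at 386 ± 294 normalised reads per kilobase in the tamoxifen libraries, above Plagl1, and at 41.8 ± 4.0 without tamoxifen, below it (SD, n = 3 each). Plagl1 was at 257 ± 149 with tamoxifen and 148 ± 24 without. In tamoxifen_3, Dlk1 at 64.3 was below Plagl1 at 85.8, so the order of the means in the tamoxifen group rests on tamoxifen_1 and tamoxifen_2. In the tamoxifen group the ranges over the libraries overlapped for every pair of neighbours in the order. Within each tamoxifen library, though, every pair but Dlk1 and Plagl1 kept the order of the means. In the group without tamoxifen the neighbours with overlapping ranges were Igf2 with Mest, Cdkn1c with Plagl1, and Dlk1 with Peg3. The other pairs did not overlap. Within single libraries of this group only Dlk1 and Peg3 changed order, at 39.3 and 43.6 in no_tamoxifen_1. Mirg was the least abundant in both groups, at 2.96 ± 2.77 with tamoxifen and 0.694 ± 0.647 without.

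Of the 10 genes, 7 had 1 of 2 kinds of profile over the 6 libraries. Igf2, H19, Mest and Plagl1 varied over a range of 1.49 to 2.04 on the log2 scale, and Igf2 and Plagl1 ordered the 6 libraries exactly as the endothelial score did. The mural score had the same order, at 7.28, 7.37 and 4.64 with tamoxifen and 5.93, 5.29 and 4.97 without. This order is therefore not particular to the endothelial markers, and the share of all genes with it was not computed. With the endothelial score subtracted, Igf2 was 3.24, 3.33 and 2.87 in the tamoxifen libraries and 2.88, 2.86 and 2.83 in those without, a range of 0.49 in place of 1.75. The range after subtraction was 0.50 for Mest, 0.59 for H19 and 0.99 for Plagl1. Tamoxifen_1 and tamoxifen_2 remained the highest after subtraction for Igf2, Mest and Plagl1, but not for H19. Mest was at 2.44 and 2.27 in them, with 2.20 in tamoxifen_3 and 2.07, 1.94 and 2.20 without tamoxifen. Plagl1 was at 0.99 and 1.02 in them, with 0.28 in tamoxifen_3 and 0.03, 0.08 and 0.22 without tamoxifen. In column 6, shown apart, the value after subtraction was 5.90 for Igf2, 6.02 for H19, 3.92 for Mest and 3.84 for Plagl1. Each was above all 6 libraries, so the 4 genes did not follow the endothelial score there.

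Dlk1, Meg3 and Rian varied over 3.84 to 4.02 on the log2 scale and by nearly as much with the endothelial score subtracted, 3.14 to 3.95. With the mesenchymal score subtracted the range was 1.44 for Dlk1, 1.15 for Meg3 and 1.30 for Rian. The cartilage score also set tamoxifen_1 and tamoxifen_2 apart, as given below. It was not subtracted, so the mesenchymal list is not singled out. Minus the mesenchymal score, Dlk1 came to 1.38, 1.42 and 1.91 in the tamoxifen libraries and 1.11, 1.70 and 2.54 in those without, so the groups overlapped. By these 2 scores Cdkn1c and Peg3 lay between the 2 kinds. Their ranges were 2.19 and 2.16 after subtraction of the endothelial score and 2.72 and 2.04 after that of the mesenchymal score. The mural score was not subtracted, so whether they lie nearer to it was not examined. Mirg, with few reads, kept a range of 4.11 and 3.42 after either subtraction. The part of mesenchymal cells in these differences was not tested.

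**Figure D4:**
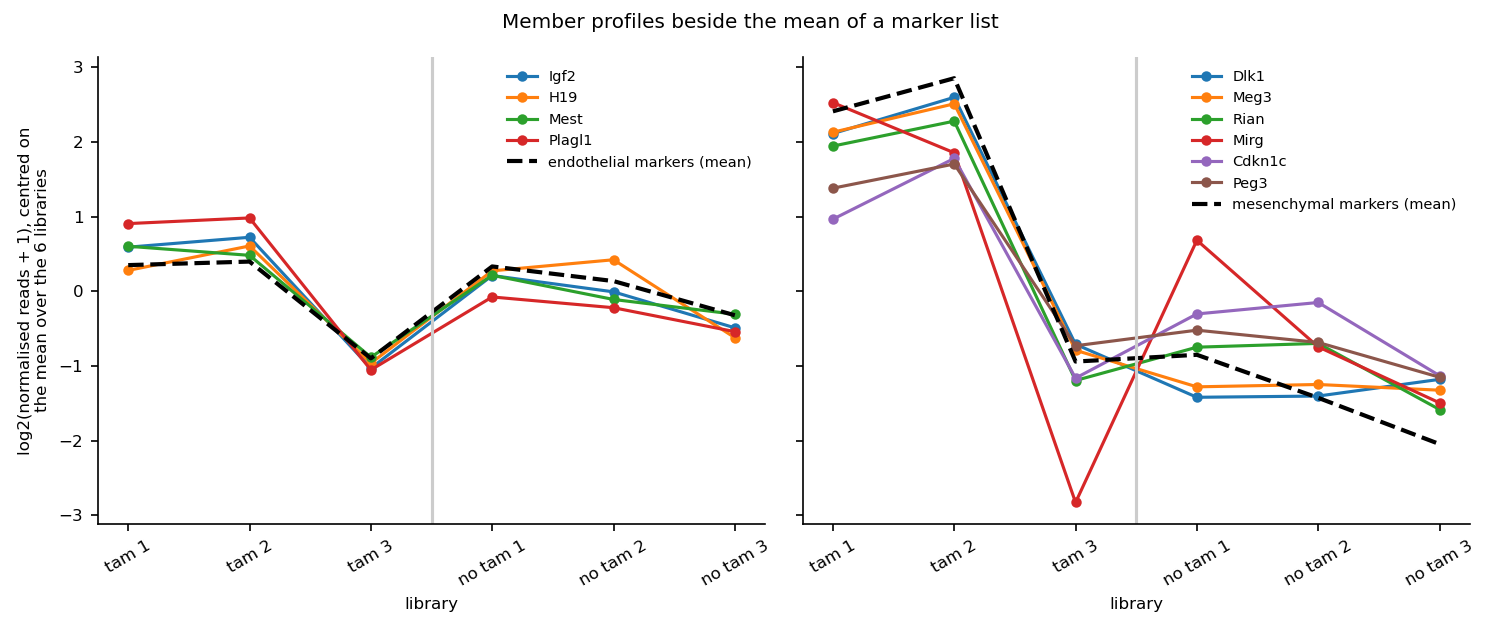
Log2(normalised reads + 1) of each gene, centred on its mean over the 6 libraries, beside the mean of the endothelial markers (left, dashed) and of the mesenchymal markers (right, dashed), which were set beside these genes after their values were seen. On the left all 4 genes are lowest in tamoxifen_3, at -0.88 to -1.05, and on the right Dlk1, Meg3 and Rian are at 1.95 to 2.60 in tamoxifen_1 and tamoxifen_2 and below 0 in the other 4 libraries.

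The cartilage score moved with these libraries as well, at 9.06, 8.66 and 5.16 with tamoxifen and 4.74, 5.04 and 4.77 without. Mural scores were 7.28, 7.37 and 4.64 with tamoxifen and 5.93, 5.29 and 4.97 without, so that tamoxifen_3 was the lowest of the 6. The scores of skeletal muscle markers were 2.84, 2.83 and 2.04 with tamoxifen and 1.94, 2.13 and 2.33 without, with 2 to 6 of its 11 genes at 0. In column 6 the mesenchymal score was 13.01 and the macrophage score 5.38, unlike all 6 libraries. Which of these cell types contributed to the levels of the imprinted genes was not tested.

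Among 12260 tested genes with regular names, the 5 whose centred log2 profile over the 6 libraries came nearest to that of Igf2 were Col4a1, Pxdn, Rbfox2, Col4a2 and Unc5b. Their root mean square differences from Igf2 were 0.0586 to 0.0763 on the log2 scale, where the median gene was at 0.668. Col4a1 and Col4a2 encode chains of basement membrane collagen, Pxdn a peroxidase that crosslinks it, Rbfox2 a splicing factor and Unc5b a netrin receptor. Col4a1 had 14947, 15838 and 5316 normalised reads in the tamoxifen libraries, against 11943, 9937 and 6945 in those without.

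The 5 genes nearest to the median profile of the 10 were Fgfr2, Mfap2, Synpo, Ltbp3 and Pcsk5, at 0.0964 to 0.151 where the median gene was at 1.12. Fgfr2 encodes a fibroblast growth factor receptor, and Mfap2 and Ltbp3 proteins of microfibrils and of TGF-beta storage in the matrix. Fgfr2 had 106, 167 and 25.2 normalised reads with tamoxifen, against 46.9, 40.0 and 20.5 without. Within the set, Dlk1 and Meg3 were the most alike, with a difference of 0.115, followed by Igf2 and Mest at 0.143 and Igf2 and Plagl1 at 0.223. H19 and Dlk1 were the least alike, at 1.52. These are descriptions over 6 libraries that share the split between tamoxifen_1, tamoxifen_2 and the rest.

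Of 46 other imprinted genes, 36 could be tested, with 20 positive and 16 negative and a median log2 fold change of 0.06. limma called 0 in either direction. At an unadjusted limma p below 0.05, 7 had a positive and 1 a negative difference, beside 659 and 556 of all 13480 genes tested. edgeR called 0 and DESeq2 called 4 higher, Magel2, Ndn, Rtl1 and Zim1, beside 1.83% of all genes. Tamoxifen_1 and tamoxifen_2 were above every library without tamoxifen for 16 of the 36, or 44.4%, beside 18.6% of all genes tested. Signs were thus mixed among imprinted genes outside the 10.

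Zim1, a zinc finger gene beside Peg3, had 289.9, 315 and 23.8 normalised reads in the tamoxifen libraries, against 21.7, 12.96 and 15.98 in those without, a log2 fold change of 2.91 ± 0.87 (SE, limma adjusted p = 0.462). Ndn and Magel2, paternally expressed neighbours in the Prader-Willi domain and members of the MAGE family, were at 1.44 ± 0.48 and 3.20 ± 1.08 (limma adjusted p = 0.475 each). Magel2 entered the test only through its level with tamoxifen, 53.7 ± 45.8 normalised reads with tamoxifen and 2.38 ± 0.99 without (SD, n = 3 each). Of the negative genes the lowest p values were those of Commd1, Blcap and Asb4. Commd1 had 249.99, 241 and 257 with tamoxifen, against 338, 349 and 269 without, at -0.34 ± 0.14. Blcap was at -0.31 ± 0.14 and Asb4, which encodes an ankyrin repeat protein of vascular development, at -0.91 ± 0.43. Grb10, which encodes an adaptor that restrains insulin and IGF receptor signalling, was at 0.05 ± 0.29, with 3529.5, 3346 and 1549 with tamoxifen, against 2885, 2693 and 2127 without.

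**Figure D5:**
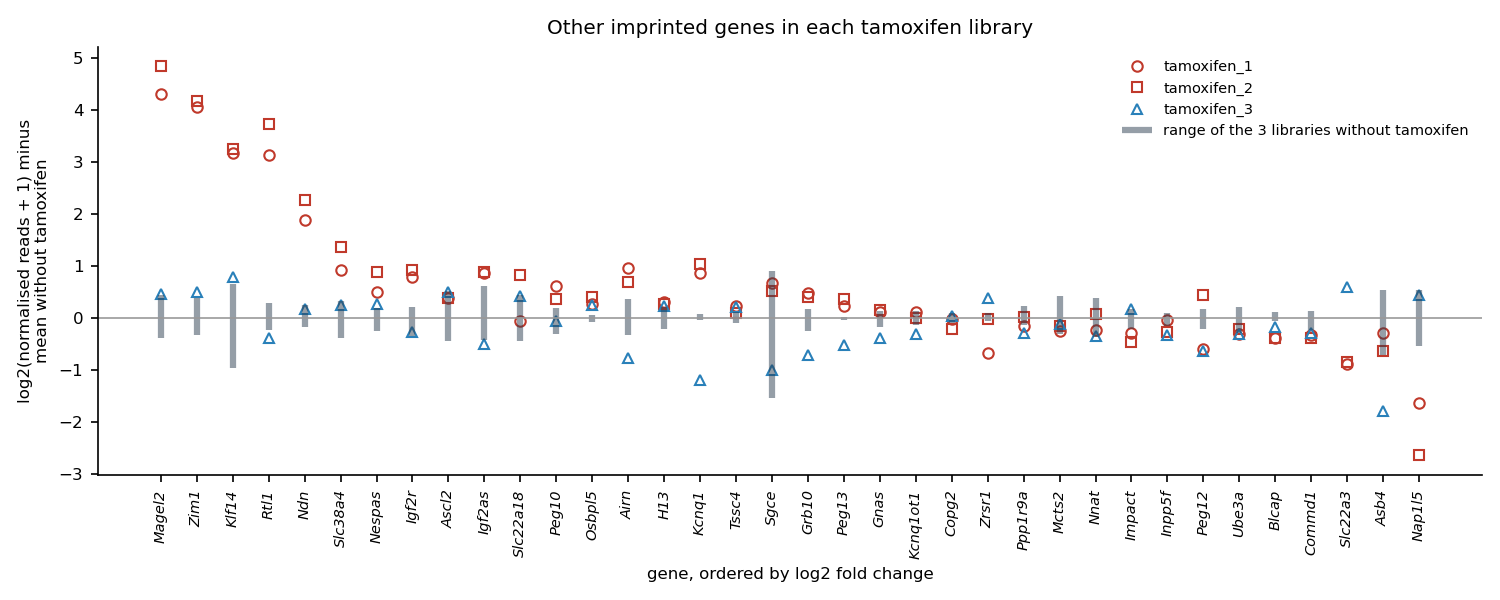
Each of the 36 other imprinted genes tested, as log2(normalised reads + 1) in each tamoxifen library minus the mean of the 3 libraries without tamoxifen, with the range of those 3 as a grey bar. Magel2, Zim1, Klf14 and Rtl1 lie above 3 in tamoxifen_1 and tamoxifen_2 but under 1 in tamoxifen_3, while most of the others stay within 1 of 0 in all 3 libraries.

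The IGF system carries the signal of Igf2, and 20 of its 21 listed genes were tested, with 15 positive and 5 negative and a median log2 fold change of 0.19. limma called 0. At an unadjusted limma p below 0.05, 5 genes had a positive and 1 a negative difference, beside 659 and 556 of all 13480 genes tested. edgeR called 0, and DESeq2 called 3 higher, Irs1, Irs2 and Pappa2, beside 1.83% of all genes. Pappa2 had 55.3, 91.2 and 2.10 normalised reads with tamoxifen, against 0.868, 0 and 3.80 without, and Pappa2 and Igfbp6 entered the test only through their level with tamoxifen. Irs2, an adaptor of the insulin and IGF receptors, had 841, 847 and 746 normalised reads in the tamoxifen libraries, against 585, 389.98 and 589 in those without. The groups did not overlap for Irs2, as for 6.24% of all genes tested in the higher direction. Its log2 fold change was 0.66 ± 0.17 (SE, limma adjusted p = 0.460). The related adaptor Irs1 had 202, 259 and 19.6 with tamoxifen, against 16.5, 5.40 and 11.4 without, at 3.21 ± 0.89 (limma adjusted p = 0.462).

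Igfbp6, a binding protein that prefers IGF2, was at 2.22 ± 0.71 with 18.4, 39.9 and 7.01 normalised reads in the tamoxifen libraries, against 2.60, 4.32 and 2.28 in those without. Igf2bp3 and Igf2bp1, RNA-binding proteins named for binding Igf2 mRNA, were at -0.24 ± 0.10 and -0.52 ± 0.23, and Stc2, an inhibitor of the proteases that free IGFs, at -0.05 ± 0.38. Of the receptors, the signalling receptor Igf1r had 3078, 3448 and 2679 with tamoxifen, against 2905, 3231 and 3115 without. Its log2 fold change was -0.01 ± 0.12, with a 95% interval of -0.28 to 0.25. Igf2r, which takes up IGF2 for degradation and is itself imprinted, had 3042, 3353 and 1476 with tamoxifen, against 2039, 1966 and 1388 without, at 0.48 ± 0.30 (limma adjusted p = 0.640). Both receptors overlapped between the groups.

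Cdkn1c acts on the machinery of G1, and 10 of 12 genes of other CDK inhibitors, D cyclins and their partners were tested, with 6 positive and 4 negative and a median of 0.06. limma, edgeR and DESeq2 each called 0. At an unadjusted limma p below 0.05, 2 genes had a positive and 0 a negative difference, beside 659 and 556 of all 13480 genes tested. These 2 were the D cyclin genes Ccnd2 at 0.33 ± 0.12 (SE) and Ccnd3 at 0.31 ± 0.12. Ccnd2 had 1901, 1787 and 1540.2 normalised reads with tamoxifen, against 1387, 1523 and 1248 without. The inhibitor gene Cdkn2c was at -0.51 ± 0.24 with 43.0, 56.1 and 54.0 with tamoxifen, against 86.8, 68.1 and 65.4 without. Cdkn2d was at 0.14 ± 0.16, Rb1 at -0.10 ± 0.14 and Cdk6 at -0.08 ± 0.14.

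Genes that maintain imprints varied little, with 13 of 16 tested, 6 positive and 7 negative and a median of -0.01. limma, edgeR and DESeq2 each called 0, and 0 had an unadjusted limma p below 0.05, beside 659 higher and 556 lower of all 13480 genes tested. The corepressor gene Trim28 had 4748, 4689.6 and 5189 normalised reads with tamoxifen, against 4029, 4327 and 4651 without, at 0.17 ± 0.10 (SE). The others named were Tet1 at 0.29 ± 0.21, Uhrf1 at 0.13 ± 0.13, Smchd1 at -0.09 ± 0.10, Zfp445 at -0.11 ± 0.11 and Dnmt3a at -0.10 ± 0.11. The full range of the list was -0.11 to 0.29, against -0.05 to 2.67 for the 10 growth genes.

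Promoters were searched for GGGGCCCC, the core of a GC-rich element described for the Plagl1 protein, which reads the same on both strands. RefSeq (GRCm38.p6) gives 14 windows for 8 of the 10 genes, each from 250 bases before to 50 after a start site. H19 and Cdkn1c had no window and were not searched. The motif was in 1 of the 14, that of Peg3, and in 354 of 32851 windows overall (1.08%). A match is a description of letters and not a bound site. The upstream 200 bases of the Peg3 window are shown, 5′ to 3′ on the minus strand with the motif in capitals from base 50.
Peg3, chr7:6730470-6730669, minus strand: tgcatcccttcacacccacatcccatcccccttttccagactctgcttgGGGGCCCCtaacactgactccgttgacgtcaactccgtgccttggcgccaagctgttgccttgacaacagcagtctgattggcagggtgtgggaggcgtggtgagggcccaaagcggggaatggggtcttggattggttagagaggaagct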

How the data were processed

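RNA depleted of ribosomal RNA was sequenced from 8 samples, 4 per group, per the labels. The authors deposited 1 table of normalised read counts, a signal unit, with 23337 gene rows. Per the submitters' processing notes, which give no roles, the tools were DESeq2, HTSeq 0.11.2 and STAR and the builds mm10 and hg38. Whether counting used strand is not given there. All deposited values used were whole multiples of the value of 1 read (tolerance 0.001 reads), which allowed the reads to be recovered from the signal. They gave the depth, 12212472 to 19908404 reads in genes per library, of which Rn45s took 29.4% to 38.7%.

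The header has 9 fields and each line 10, so the 8 library names can stand over the last or the first 8 of the 9 value columns. Columns 3 to 5 and 7 to 9, counting the gene name as column 1, keep their group under both placements. Column 6 changes group and column 10 loses its name. They are shown apart and enter only alternatives. The remaining 1 value column was not used. It has no name when the names stand over the last 8 value columns. With the names over the first 8 it takes a name without tamoxifen. The alternative with that placement therefore lacks 1 of its libraries without tamoxifen.

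Genes with a mean of at least 10 over the 6 libraries were tested, 13480 in all, by limma 3.58.1 (R 4.3.3) of log2(value + 1), with a mean-variance trend and Benjamini-Hochberg adjustment over all tested genes at 0.05. The scale understates the change of low genes. A count model was not the main test because the deposited values are not counts. edgeR 4.0.16 and DESeq2 1.42.0 on the recovered reads, other pseudocounts, filters and scalings, the replicate number as a block, leaving out each library, and both header placements were alternatives. The fits were tested on simulated counts with the same spread in every library. That setting does not cover a tamoxifen library unlike the others of its group. Levels per kilobase divide by the union of exons in GENCODE M21 (GRCm38), which also gives the coordinates. Counting intervals and floors cover counting error only.

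The 10 genes, the gene and marker lists and the tests were chosen with earlier results of these data known. All 10 are named whatever their values. From the other lists, genes past the threshold were to be named, filled up to 3 per direction by lowest p, with Igf2r, Igf1r and Grb10 always named. The genes most alike are the 5 nearest in root mean square difference, without predicted or clone names. Of the list symbols, 5 were matched through an older symbol and Hbb-bt was not matched.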

Additional observations from a re-analysis of the deposited data

Results flagged for a closer look

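Column 6, which belongs to the tamoxifen group under one placement of the header names and to the group without tamoxifen under the other, held values above every library without tamoxifen for 9 of the 10 genes. The share of all genes so placed in column 6 was not computed, so this count is not read as particular to the 10. Column 6 had 14169 normalised reads of Igf2, 15401.5 of H19, 6158 of Dlk1, 12863 of Meg3 and 5547 of Rian. It had 254 of Mirg, 5615 of Cdkn1c, 10747 of Peg3 and 3403 of Plagl1. Relative to the mean of the 3 libraries without tamoxifen this was 91.8-fold for Meg3, 54.0-fold for Rian, 50.3-fold for Mirg, 26.0-fold for Dlk1, 21.9-fold for Peg3 and 11.7-fold for Cdkn1c. It was 2.94-fold for Plagl1, 1.80-fold for Igf2 and 1.45-fold for H19, while Mest, at 3584, was at 0.792 of that mean. Its mesenchymal score was 13.01, its endothelial score 7.89 and its macrophage score 5.38, and its depth of 8695745 reads was the lowest of the columns used. The part of these in the values was not tested.

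Column 10, a tamoxifen library under one placement and without a name under the other, was above every library without tamoxifen for Dlk1 and Meg3, with 287 and 153 normalised reads. It was below all 6 libraries for Igf2 at 2555, H19 at 4783, Cdkn1c at 231, Peg3 at 356, Mest at 1158 and Plagl1 at 457. Rian at 77.9 and Mirg at 8.39 lay within the range of the libraries without tamoxifen. Its mesenchymal score was 6.24 and its endothelial score 8.38. The shares of all genes above or below the libraries in column 10 were not computed either.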

How the results depend on the processing

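limma called 6 genes higher and 0 lower of 13480. The count higher was 247 with DESeq2, 20 with the replicate block, 28 with tamoxifen_3 as the only tamoxifen library and 0 with the names over the first 8 value columns. The count lower was 28 with DESeq2, 1 with the replicate block, 63 with tamoxifen_3 alone and 1 with column 10 added. Leaving out 1 library gave 2 to 973 higher and 0 to 469 lower. The highest counts came without tamoxifen_3. The higher count was 3 without no_tamoxifen_1 and 2 without no_tamoxifen_2 or no_tamoxifen_3. Of the 10 imprinted genes 0 were called, 2 with DESeq2, 0 to 9 with 1 library left out, Mirg among the 9, and 0 with the replicate block. The causes were not tested. Results with the names over the first 8 value columns lack the unused column, which that placement names as without tamoxifen. Same-numbered libraries correlated at 0.20, 0.04 and 0.34 in their deviations from the group means, and not every library correlated best with its own number, so the numbers are not taken to pair them.

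Of 179 recomputed fold changes of the 10 genes, 142 kept their direction and side of the threshold, 11 passed it in the same direction and 26 changed sign. Igf2 was at -0.06 without tamoxifen_1, -0.12 without tamoxifen_2, -0.01 without no_tamoxifen_3, -0.93 with tamoxifen_3 alone, -0.48 with the names over the last 8 columns and -0.26 with column 10 added. Mest was at -0.13 without tamoxifen_1, -0.07 without tamoxifen_2, -0.82 with tamoxifen_3 alone, -0.31 with the names over the last 8 columns and -0.39 with column 10 added. H19 was at 0.0361 in edgeR, 0.0490 in DESeq2, 0.42 without tamoxifen_3, 0.07 without no_tamoxifen_1, 0.15 without no_tamoxifen_2 and 0.11 with the names over the first 8 columns. With tamoxifen_3 alone Rian was at -0.18, Mirg at -2.31, Cdkn1c at -0.64 and Plagl1 at -0.77. With the names over the last 8 columns Rian was at -0.0189, Mirg at -0.41, Cdkn1c at -0.36, Peg3 at -0.0493 and Plagl1 at -0.31. With 1 library left out the range was -0.12 to 0.75 for Igf2, -0.37 to 0.42 for H19, -0.13 to 0.61 for Mest, 2.04 to 3.69 for Dlk1, 1.95 to 3.61 for Meg3, 1.39 to 3.12 for Rian, 0.03 to 2.71 for Mirg, 0.43 to 1.90 for Cdkn1c, 1.11 to 2.33 for Peg3 and 0.21 to 1.22 for Plagl1. Dlk1 and Meg3 kept their sign in all 18 alternatives, from 0.62 to 3.69 and from 0.33 to 3.61. The log2 difference of H19 to Igf2 was 0.0157 with the names over the last 8 columns, and that of Meg3 to Dlk1 was 0.38 with the names over the first 8. The median of all genes stayed within -0.06 to 0.02. With a filter of at least 50, Mirg was not tested.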

Other observations

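Among the other imprinted genes, 3 with large differences that the rule for named genes did not take were chosen after their values were seen. Rtl1, a retrotransposon-derived gene between Dlk1 and Rian that is paternally expressed, had 131, 199.5 and 10.5 normalised reads in the tamoxifen libraries, against 17.4, 11.9 and 13.7 in those without, a log2 fold change of 2.15 ± 0.93 (SE, limma adjusted p = 0.550). Klf14, a maternally expressed transcription factor gene, had 29.7, 31.4 and 4.91 with tamoxifen, against 4.34, 3.24 and 0.761 without, at 2.40 ± 0.84, and entered the test only through its level with tamoxifen. Nap1l5 had 14.3, 6.65 and 63.8 with tamoxifen, against 32.1, 68.1 and 47.2 without, at -1.29 ± 0.72, so that the 2 libraries high for Rtl1 and Klf14 were the lowest for it.

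Of the remaining marker lists, erythroid scores were 4.11, 4.08 and 3.43 with tamoxifen and 3.25, 2.94 and 3.43 without. The hepatocyte score was 3.49, 3.99 and 2.51 with tamoxifen and 2.78, 2.20 and 2.54 without. The epithelial score was 4.41, 5.03 and 3.20 with tamoxifen and 3.84, 4.68 and 4.34 without, and the neural score was 4.63, 4.36 and 3.29 with tamoxifen and 3.62, 3.92 and 3.44 without.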
